A study of Mus musculus with 15 samples.

Results

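The genes described here are 40 interferon-stimulated genes of the mouse, taken by gene symbol from a list chosen with earlier results of these data known. Of these, 38 were in the deposited gene table and all 38 passed the filter on low counts, so they are 38 of the 12198 genes tested and of 16886 genes in the table; Mx1 and Mx2 were not analysed here. The cells were bone macrophages of C57BL6J mice of 3 genotypes, WT, ROBO4 knockout (ROBO4_KO) and VLDLR knockout (VLDLR_KO), with 5 libraries each. The cells of all 15 libraries had 14 days of M-CSF (Sigma), the growth factor that supports macrophages, at 20 ng/ml, and the labels name no other agent. ROBO4 is a guidance receptor known mainly from blood vessels, and VLDLR is a receptor for lipoproteins and reelin. The labels give no age or sex of the mice and do not say how the knockouts were made, or whether libraries of a genotype came from separate mice or cultures; p-values then measure only the spread between these libraries, which may be technical.

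The sample codes came in 2 forms, with a digit before the letter B (WT replicates 3, 4 and 5, ROBO4_KO replicates 1 and 2, VLDLR_KO replicates 1 and 2; 7 libraries) or after it (WT replicates 1 and 2, ROBO4_KO replicates 3, 4 and 5, VLDLR_KO replicates 3, 4 and 5; 8 libraries). These are called the digit-first and the digit-last form here, and nothing in the labels explains them. Every genotype was therefore compared within each form, and as the mean of both forms with equal weight. A gene is called higher or lower where edgeR's quasi-likelihood test, with Benjamini-Hochberg adjustment over all 12198 genes, gave an adjusted p under 0.05. Levels are in CPM, the count scaled to a common library total, and differences are log2 ratios with their standard error (SE).

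Interferons are secreted proteins that cells release after sensing viral nucleic acid. Type I interferon binds IFNAR1 and IFNAR2, the kinases JAK1 and TYK2 are activated, and a complex that holds STAT2 and IRF9 binds the interferon-stimulated response element (ISRE) of its target genes. Type II interferon acts through IFNGR1 and IFNGR2, and its target genes carry the gamma-activated site (GAS). Macrophages in culture are known to keep a low tonic expression of many of these genes without infection.

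The promoters of the 5 members with the smallest p for VLDLR_KO against WT among those with an entry are shown, since these members carry the main difference below and their regulation is what the gene class is named for. Sequences are from RefSeq on GRCm38.p6, the build of the deposited gene table, each being the 250 bases upstream of the start in the RefSeq table, in the direction of the gene. For Oasl2 that start lies inside the span the deposited table gives the gene (114890214 to 114912245). Capitals mark matches to the ISRE core GAAANNGAAA, searched on both strands.
Rsad2 (chr12:26456453-26456702, minus strand): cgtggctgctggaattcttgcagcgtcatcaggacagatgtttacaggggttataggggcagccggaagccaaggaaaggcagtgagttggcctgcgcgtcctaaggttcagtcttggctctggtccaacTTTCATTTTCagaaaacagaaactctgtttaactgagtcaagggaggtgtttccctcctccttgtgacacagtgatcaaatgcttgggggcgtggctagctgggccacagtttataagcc
Oasl2 (chr5:114896684-114896933, plus strand): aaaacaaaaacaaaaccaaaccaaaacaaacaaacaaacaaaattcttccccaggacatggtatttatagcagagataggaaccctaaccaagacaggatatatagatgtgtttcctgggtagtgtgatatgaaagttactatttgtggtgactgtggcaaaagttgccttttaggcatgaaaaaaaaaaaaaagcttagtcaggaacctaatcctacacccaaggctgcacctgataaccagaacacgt
Herc6 (chr6:57580742-57580991, plus strand): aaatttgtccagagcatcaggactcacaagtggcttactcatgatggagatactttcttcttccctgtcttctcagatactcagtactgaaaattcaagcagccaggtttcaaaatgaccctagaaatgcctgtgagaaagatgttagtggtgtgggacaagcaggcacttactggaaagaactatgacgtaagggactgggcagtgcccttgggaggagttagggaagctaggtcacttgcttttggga
Cmpk2 (chr12:26468965-26469214, plus strand): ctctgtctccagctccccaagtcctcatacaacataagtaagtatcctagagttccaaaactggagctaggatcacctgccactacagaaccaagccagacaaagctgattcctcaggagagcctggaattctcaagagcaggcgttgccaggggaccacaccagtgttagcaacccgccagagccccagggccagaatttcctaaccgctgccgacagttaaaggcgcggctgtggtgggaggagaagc
Irgm1 (chr11:48871421-48871670, minus strand): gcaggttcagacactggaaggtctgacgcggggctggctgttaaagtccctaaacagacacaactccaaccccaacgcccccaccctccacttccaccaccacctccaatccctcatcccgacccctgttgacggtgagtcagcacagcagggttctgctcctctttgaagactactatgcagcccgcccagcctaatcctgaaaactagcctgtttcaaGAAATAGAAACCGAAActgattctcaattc
Rsad2 had 1 match, from 120 to 111 bases upstream on the opposite strand, and Irgm1 had 2 overlapping matches that begin 30 bases upstream. The windows of Oasl2, Herc6 and Cmpk2 held none, which says only that these letters are not in this window. Over windows of 300 bases, 250 before to 50 after the start, 17 of the 30 members with an entry (56.7%) had an ISRE match, against 3.99% of the 27025 genes in the table. Isg15 held 3 matches, and Bst2, Gbp3, Ifit1, Ifit3, Irgm1 and Oas1a held 2 each. The GAS core TTCNNNGAA matched in 8 of the 30 members (26.7%), against 9.55% of genes. Dhx58, Ifi27, Mx1, Mx2, Oas2, Parp14, Parp9, Rtp4, Usp18 and Zbp1 had no entry. The 17 members with an ISRE match had a median log2 difference of -0.26 between VLDLR_KO and WT, and the 13 without one had -0.45.

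The members lie on 15 chromosomes, and 15 of the 38 sit in 6 clusters whose neighbours are under 200000 bases apart. On chromosome 12, Rsad2 (26442743 to 26456452, minus strand) and Cmpk2 (26469212 to 26479837, plus strand) point away from each other, with 12760 bases between their 5′ ends. Chromosome 5 holds Oasl2 with Oasl1 and, elsewhere, Oas2, Oas3 and Oas1a. The other clusters are Gbp7, Gbp3 and Gbp2 on chromosome 3, Parp14 and Parp9 on chromosome 16, and Ifit2, Ifit3 and Ifit1 on chromosome 19. Members of a cluster are close relatives in the OAS, GBP and IFIT families, and the estimated counts of 7 members were not whole numbers in every library, so their values are uncertain where the authors' counting divided shared reads. These were Oas1a and Ifit3 (15 libraries each), Parp9 (14), Sp100 (8), Oas3 (5), and Eif2ak2 and Ifit1 (1 each).

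Across genes, levels were compared per length as FPKM. The highest mean level was that of Bst2 (145 FPKM, 81.8 to 369 over the 15 libraries), which encodes tetherin, a membrane protein that holds budding virus at the cell surface. Next came Ifi27 (78.7 FPKM), Oas1a (35.6 FPKM), Irgm1 (31.1 FPKM) and Sp100 (28.5 FPKM). In all, 14 members had a mean of at least 10 FPKM, 21 lay between 1 and 10 FPKM, and Gbp7, Ifi44 and Oasl1 were under 1 FPKM. Sp100, a nuclear body protein, had 67.1, 73.9 and 83.95 CPM in WT, 64.3 and 68.5 in ROBO4_KO and 70.1 and 62.1 in VLDLR_KO in the digit-first form, and 79.7 and 73.4 in WT, 69.5, 79.01 and 72.0 in ROBO4_KO and 65.2, 62.1 and 71.8 in VLDLR_KO in the digit-last form. The genotypes overlapped or lay close in both forms, and Sp100 was called in no genotype comparison.

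Library totals ranged from 18132866 to 19005966 counts, so depth was near equal. The macrophage markers Csf1r (1134 to 2503 CPM) and Adgre1 (743 to 1169 CPM) were high in every library. Plasmacytoid dendritic cells are known as strong producers of type I interferon. Of their 6 markers in the table, Siglech was at 0 in 14 of 15 libraries, Ly6d in 9, Spib in 7 and Ccr9 in 6. Tcf4 (38.5 to 72.6 CPM) and Cox6a2 (0.107 to 2.08 CPM) were at 0 in none. Of the 5 T and NK cell markers in the table, Ncr1 was at 0 in 14 libraries, Cd3e in 13, Klrb1c in 5 and Cd8a in 2, while Cd4 had 11.2 to 54.04 CPM in every library. Itgax, listed for conventional dendritic cells and also expressed by macrophages, ranged from 67.2 to 2364 CPM, while Flt3 was at 0 in 11 libraries. The 5 listed B cell markers summed to at most 1.04 CPM, and the 8 of 9 neutrophil markers in the table to at most 15.7 CPM. Neither targeted gene could check the labels, since Vldlr had 5 to 36 counts in WT and 1 to 9 in VLDLR_KO, and Robo4 had 0 to 4 counts in any library. In these bulk samples, fewer cells of a type and less RNA per cell cannot be told apart.

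Libraries differed first by code form. The mean of the 38 members, as log2 CPM relative to the mean of all 15 libraries, was 0.299, 0.417 and 0.734 in WT in the digit-first form and -0.026 and 0.011 in WT in the digit-last form. ROBO4_KO gave -0.037 and -0.089 against -0.468, -0.138 and -0.259, and VLDLR_KO gave 0.196 and 0.239 against -0.199, -0.512 and -0.168. In each genotype every library in the digit-first form lay above every library in the digit-last form. Among digit-first libraries, WT was highest, VLDLR_KO intermediate and ROBO4_KO lowest with no overlap; in the digit-last form, WT lay above both knockouts, whose ranges overlapped. WT replicate 5 was the highest of all 15 libraries for 20 of 38 members, and VLDLR_KO replicate 4 the lowest for 15.

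**Figure D1:**
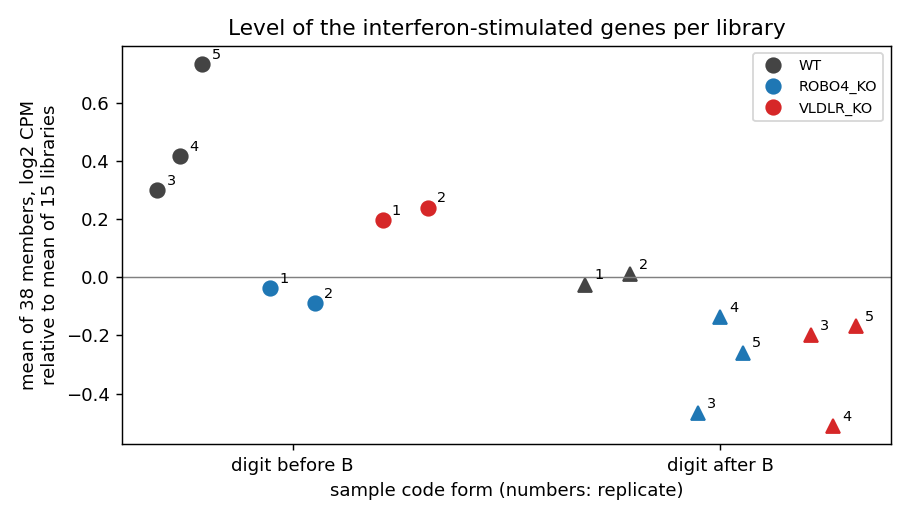
Mean of the 38 interferon-stimulated genes per library (vertical axis, log2 CPM relative to the mean of 15 libraries) by sample code form (horizontal axis); each point is 1 library, numbered by replicate, coloured by genotype. WT libraries with the digit before B sit at 0.299 to 0.734, above all others.

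Between the forms, over the mean of the 3 genotypes, 24 members were higher in the digit-first form and 2 were lower; of all genes tested, 23.2% were called higher and 22.4% lower. Cell type markers moved with the form: the osteoclast markers summed to 20.9 to 43.5 CPM in the digit-first and 75.8 to 307.5 in the digit-last form, and the neutrophil markers to 0.0516 to 1.19 and 2.39 to 15.7 CPM, with no overlap. Of single markers, Acp5 (-4.41), Ctsk (-2.72), Itgax (-2.29) and Itgam (-1.09) were lower in the digit-first form and Col3a1 (2.57) higher. The sums of the fibroblast markers, which include Col3a1, overlapped, at 2.73 to 210.5 CPM in the digit-first and 9.01 to 35.5 in the digit-last form. Their part in the members' difference between forms was not tested. The median of the members was 0.41 (log2), and that of all genes was near 0. The largest differences were those of Oas2 (1.76, SE 0.16), Rtp4 (1.51, SE 0.22), Ifit1 (1.38, SE 0.20) and Ifit3 (1.27, SE 0.23). Oas2 makes the 2′-5′ oligoadenylates that activate RNase L, and the IFIT proteins bind viral RNA. Oas2 had 54.7, 58.02 and 72.7 CPM in WT, 45.8 and 43.1 in ROBO4_KO and 62.3 and 67.7 in VLDLR_KO in the digit-first form, against 20.7 and 21.1 in WT, 7.897, 16.5 and 16.5 in ROBO4_KO and 20.97, 10.7 and 16.3 in VLDLR_KO in the digit-last form. No library of 1 form overlapped the other. The 2 members that were lower in the digit-first form, Gbp7 (-0.90) and Gbp2 (-0.36), encode GTPases known chiefly as targets of type II interferon.

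**Figure D2:**
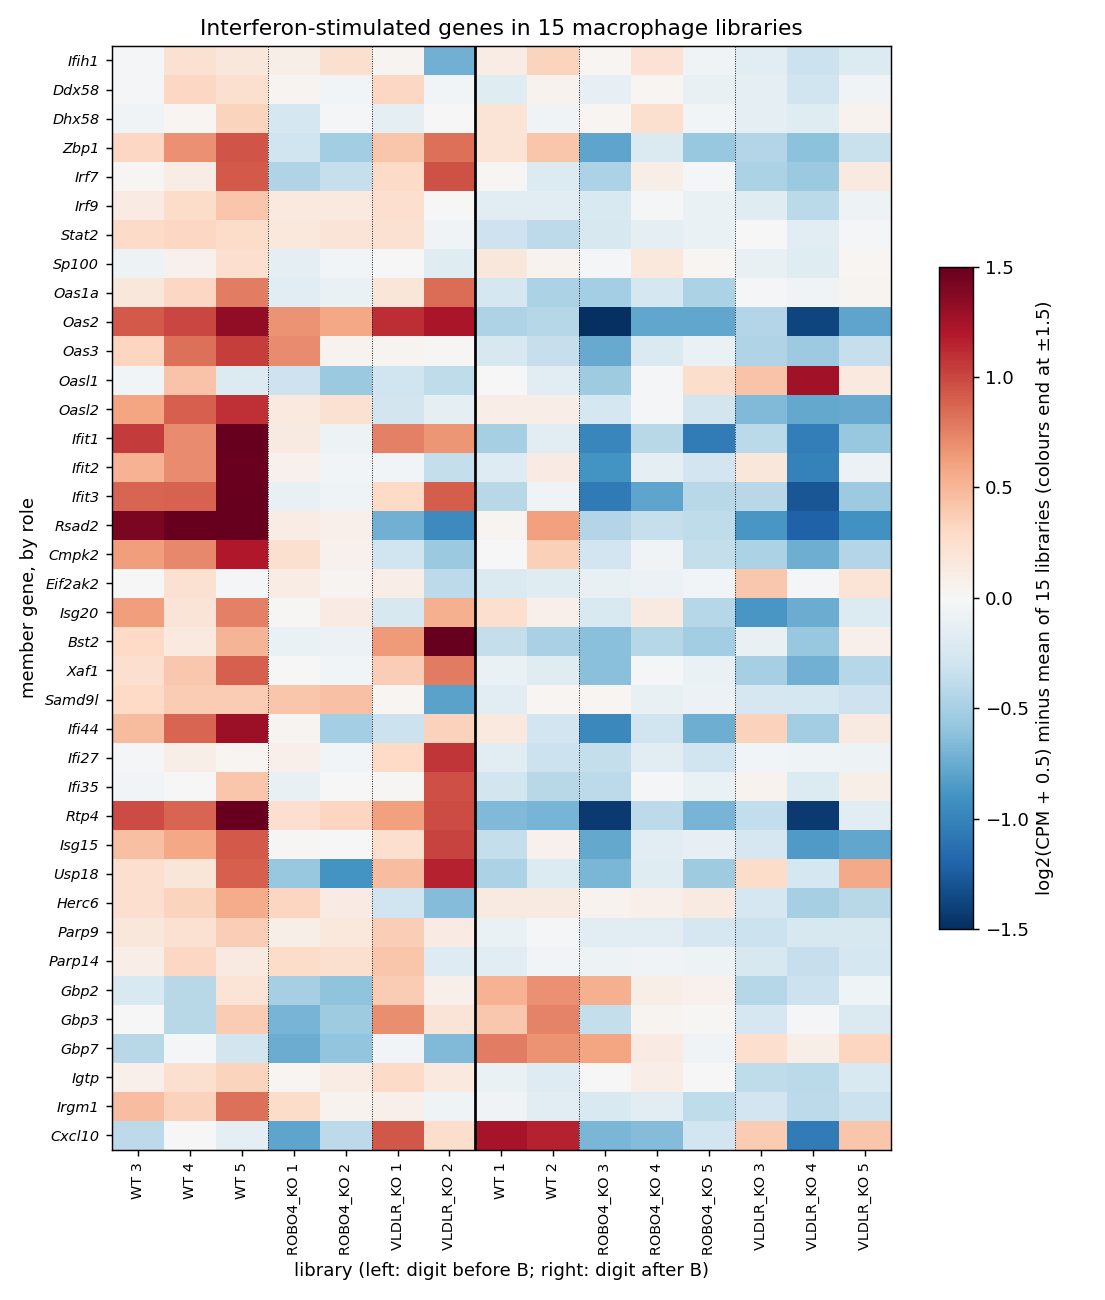
Levels of the 38 members (rows, grouped by role) in the 15 libraries (columns, digit before B on the left, after B on the right), as log2(CPM + 0.5) minus the mean of the 15 libraries, with colours ending at ±1.5. Most members are red in the 3 WT libraries on the left, while Rsad2, Cmpk2, Oasl2 and Herc6 are blue in the VLDLR_KO columns on both sides.

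VLDLR_KO macrophages had less of a small set of antiviral effectors than WT in both code forms, while most other members were not called. Among digit-first libraries, 8 members were lower and 2 higher (of all genes, 15.6% and 17.6%). In the digit-last form, 6 members were lower and none higher (of all genes, 7.43% and 5.94%). WT in that form is replicates 1 and 2 alone. These had 856 and 944 CPM of the immediate early gene Fos, against 12.5 to 56.2 CPM in all other libraries. Its part in the differences from WT in that form was not tested. As the mean of both forms, 7 were lower and 2 higher (of all genes, 13.6% and 12.4%), with a median of -0.19 over the members. VLDLR_KO differed from WT in many genes, so the number of members called says little by itself. Without VLDLR_KO replicate 2 the number called in the digit-first form was 5. The number in the digit-last form was 3 without WT replicate 1 or VLDLR_KO replicate 3, 2 without WT replicate 2, and 10 without VLDLR_KO replicate 1 or 2. As the mean of both forms, 5 were called without WT replicate 2 and 17 without VLDLR_KO replicate 1. Sums of cell type markers differed between these groups as well. The 10 macrophage markers summed to 11050 to 12980 CPM in WT and 28260 to 34380 in VLDLR_KO in the digit-first form, and to 16860 to 17410 and 19110 to 21170 CPM in the digit-last form. Lyz2 made up most of the sums of VLDLR_KO in the digit-first form. Over all libraries Lyz2 ranged from 4975 to 26384 CPM, and Adgre1 only from 743 to 1169 CPM. The 7 conventional dendritic cell markers summed to 68.2 to 109 CPM in WT and 747 to 954 in VLDLR_KO in the digit-first form, and to 719 to 840 and 1369 to 2365 CPM in the digit-last form, carried by Itgax. The 8 fibroblast markers summed to 46.8 to 210.5 CPM in WT and 2.73 to 20.1 in VLDLR_KO in the digit-first form, and to 29.6 to 35.5 and 11.99 to 23.0 CPM in the digit-last form. Plasmacytoid dendritic cell markers, carried by Tcf4, were higher in VLDLR_KO in the digit-first form (50.2 to 54.1 CPM in WT, 64.3 to 74.8 in VLDLR_KO) and lower in the digit-last form (58.03 to 67.1 and 40.2 to 45.2 CPM). The neutrophil markers summed to 0.259 to 0.426 CPM in WT and 0.5995 to 1.19 in VLDLR_KO in the digit-first form, and to 6.27 to 8.22 and 2.39 to 4.07 CPM in the digit-last form. The T and NK cell markers summed to 34.37 to 54.92 CPM in WT and 31.66 to 34.99 in VLDLR_KO in the digit-first form. In the digit-last form they summed to 22.75 to 26.86 and 16.45 to 32.52 CPM, so the groups overlapped in both forms. Of that list, Klrb1c was lower in VLDLR_KO in both forms (-6.20 and -7.32). Its level was at most 1.34 CPM in any library and 0 in 5 libraries, so the size of these differences is uncertain. The part of these markers in the result was not tested.

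In 7 members, Cmpk2, Herc6, Irgm1, Oas3, Oasl2, Rsad2 and Samd9l, every VLDLR_KO library was below every WT library in both forms (9.62% of all genes), and in Ifi27 every one was above (7.95% of all genes).

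Rsad2 showed the largest difference. It encodes viperin, an enzyme that converts CTP into a nucleotide that stops viral polymerases. Among digit-first libraries it had 36.2, 39.8 and 56.1 CPM in WT, 14.5 and 13.99 CPM in ROBO4_KO and 7.85 and 6.59 CPM in VLDLR_KO. Among digit-last libraries it had 13.7 and 20.7 in WT, 9.68, 10.3 and 10.1 in ROBO4_KO and 7.04, 5.47 and 6.84 in VLDLR_KO, so the genotypes kept the order WT, ROBO4_KO, VLDLR_KO with no overlap in either form. VLDLR_KO was lower than WT, by a log2 difference of -2.61 (SE 0.22, adjusted p = 4.906e-06) in the digit-first form and -1.41 (SE 0.21, adjusted p = 0.000596) in the digit-last form. These 2 differences themselves differed (-1.20, SE 0.30, adjusted p = 0.0215), a call that was lost without WT replicate 1 or VLDLR_KO replicate 2 (adjusted p = 0.0946 and 0.0696). Both within-form calls against WT held without any 1 library.

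Cmpk2, the neighbour of Rsad2 on chromosome 12, encodes a mitochondrial kinase of UMP and CMP. It had 16.4, 17.5 and 24.6 CPM in WT, 12.3 and 10.9 in ROBO4_KO and 8.34 and 6.89 in VLDLR_KO in the digit-first form, and 10.3 and 13.4 in WT, 8.45, 9.96 and 7.99 in ROBO4_KO and 7.31, 6.08 and 7.53 in VLDLR_KO in the digit-last form. The order of the genotypes was that of Rsad2, again with no overlap. VLDLR_KO was lower than WT, by a log2 difference of -1.35 (SE 0.21, adjusted p = 0.000468) and -0.77 (SE 0.20, adjusted p = 0.0223) in the 2 forms. The second call was lost without WT replicate 2 or VLDLR_KO replicate 3 (adjusted p = 0.265 and 0.0538), and the mean of both forms (-1.06, SE 0.14) held without any 1 library.

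Oasl2 encodes an OAS-like protein with ubiquitin-like domains. It had 51.2, 63.1 and 73.1 CPM in WT, 37.4 and 39.6 in ROBO4_KO and 27.8 and 30.5 in VLDLR_KO in the digit-first form, and 36.4 and 36.4 in WT, 27.97, 33.5 and 27.9 in ROBO4_KO and 21.2, 19.6 and 19.8 in VLDLR_KO in the digit-last form. No genotypes overlapped within a form. The differences from WT were -1.10 (SE 0.14, adjusted p = 0.000109) and -0.85 (SE 0.13, adjusted p = 0.00109), and both calls held without any 1 library. Herc6, the mouse ligase that attaches ISG15 to proteins, had 33.5, 35.4 and 41.5 CPM in WT, 35.2 and 30.7 in ROBO4_KO and 22.8 and 17.7 in VLDLR_KO in the digit-first form. In the digit-last form it had 30.8 and 30.9 in WT, 29.2, 29.5 and 30.95 in ROBO4_KO and 23.5, 19.8 and 20.9 in VLDLR_KO, so that VLDLR_KO stood below both other genotypes, which overlapped each other. VLDLR_KO differed from WT by -0.86 (SE 0.13, adjusted p = 0.000536) and -0.53 (SE 0.13, adjusted p = 0.0171). The second call was lost without WT replicate 1 or 2 or VLDLR_KO replicate 5 (adjusted p = 0.0608 to 0.123), and the mean of both forms (-0.69, SE 0.09) was not.

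**Figure D3:**
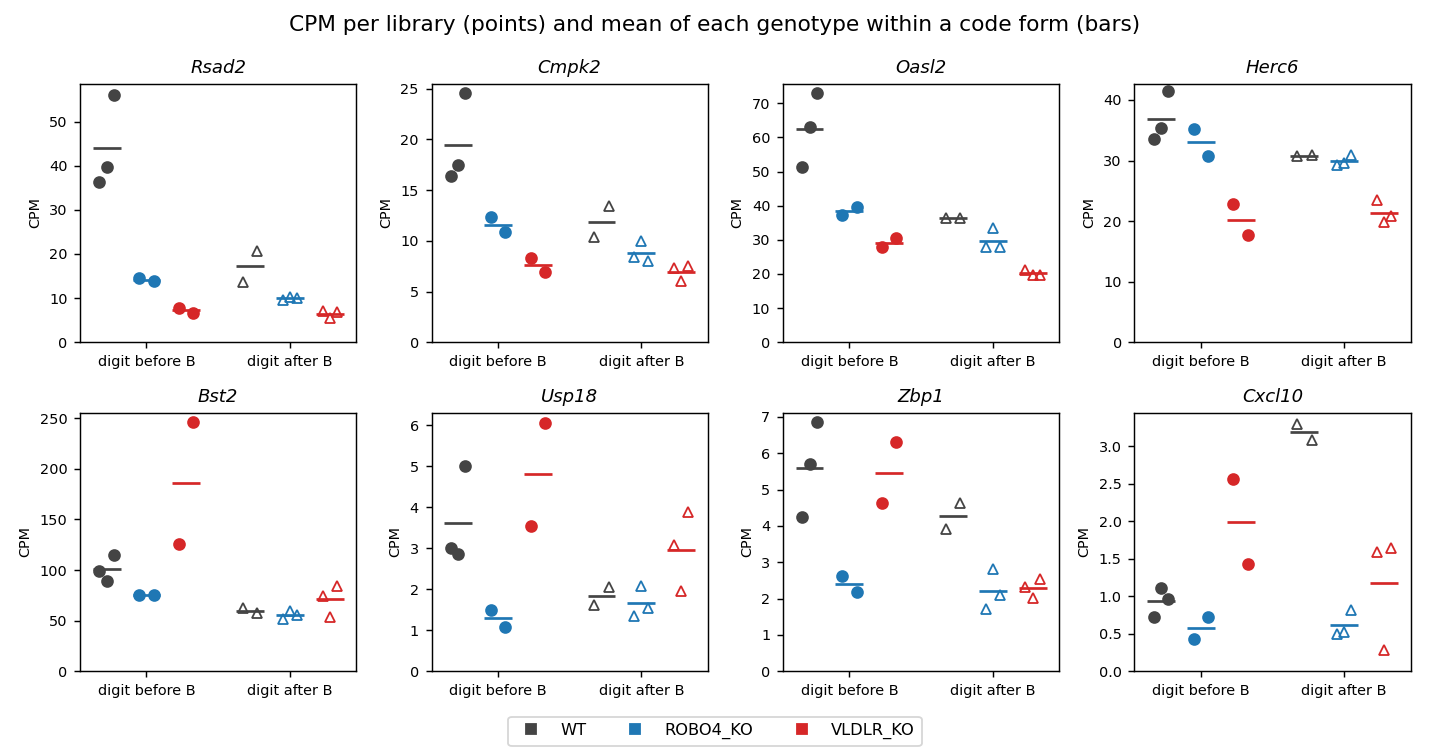
CPM (vertical axes, from 0) of 8 members per library (points) with the mean of each genotype (bars), by code form (filled circles, digit before B; open triangles, digit after B). In the upper row (Rsad2, Cmpk2, Oasl2, Herc6) VLDLR_KO lies below WT in both forms; in the lower row (Bst2, Usp18, Zbp1, Cxcl10) the order of the genotypes changes from gene to gene.

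A further 3 members were lower as the mean of both forms, by less. Irgm1, a GTPase that acts on membranes in defence against intracellular bacteria, had 82.4, 76.02 and 106 CPM in WT, 72.2 and 61.9 in ROBO4_KO and 62.7 and 56.97 in VLDLR_KO in the digit-first form, and 57.5 and 52.8 in WT, 50.6, 53.04 and 45.7 in ROBO4_KO and 48.8, 45.1 and 47.5 in VLDLR_KO in the digit-last form. It was lower, by a log2 difference of -0.39 (SE 0.09, adjusted p = 0.00882) as the mean of both forms and by -0.56 (SE 0.13, adjusted p = 0.00801) in the digit-first form, a call lost without VLDLR_KO replicate 2 (adjusted p = 0.0621). Ifih1 encodes MDA5, a sensor of long double-stranded RNA. It had 33.3, 39.8 and 38.3 CPM in WT, 35.98 and 40.3 in ROBO4_KO and 35.04 and 20.4 in VLDLR_KO in the digit-first form, where VLDLR_KO overlapped WT, and 36.8 and 43.0 in WT, 34.7, 39.6 and 32.7 in ROBO4_KO and 30.3, 26.99 and 29.3 in VLDLR_KO in the digit-last form. Its mean difference was -0.44 (SE 0.13, adjusted p = 0.023), and was not called without WT replicate 2 or 4 or VLDLR_KO replicate 2 (adjusted p = 0.0519 to 0.103). Samd9l, which restricts translation, had 113, 121 and 120.0 CPM in WT, 123 and 125 in ROBO4_KO and 94.01 and 52.5 in VLDLR_KO in the digit-first form, and 81.8 and 93.8 in WT, 94.04, 85.1 and 86.9 in ROBO4_KO and 77.5, 76.5 and 74.4 in VLDLR_KO in the digit-last form. Its mean difference was -0.45 (SE 0.12, adjusted p = 0.0167), lost without WT replicate 2 (adjusted p = 0.0799), and in the digit-first form it was -0.69 (SE 0.17, adjusted p = 0.0102), a call that held without any 1 library but not with each form fitted on its own (adjusted p = 0.0615).

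Calls in 1 form only came from 4 more members. Among digit-first libraries, Ifit2, which binds viral RNA, was lower, by a log2 difference of -1.20 (SE 0.36, adjusted p = 0.0229), and Oas3 by -0.74 (SE 0.23, adjusted p = 0.0286). Ifit2 was not called without WT replicate 5 or VLDLR_KO replicate 2 (adjusted p = 0.0765 and 0.155). Oas3 was not called without WT replicate 4 or 5 or VLDLR_KO replicate 1 or 2 (adjusted p = 0.0624 to 0.132), nor with gene length in the fit (adjusted p = 0.0823), and its counts were not whole numbers in 5 libraries. Among digit-last libraries, Gbp2 was lower, by a log2 difference of -0.91 (SE 0.21, adjusted p = 0.0118) and Zbp1 by -0.89 (SE 0.26, adjusted p = 0.0411). Gbp2 was not called without WT replicate 1 or 2 or VLDLR_KO replicate 3 (adjusted p = 0.0517 to 0.123). Zbp1 was not called without WT replicate 1, 2 or 4, ROBO4_KO replicate 1, 2 or 5 or VLDLR_KO replicate 3, 4 or 5 (adjusted p = 0.0522 to 0.277). Whether Ifit2, Oas3 and Zbp1 differed more in 1 form than in the other was tested with the difference between forms, which was not called for them (adjusted p = 0.186, 0.234 and 0.123).

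Bst2 and Ifi27 went the other way. Bst2 had 98.8, 88.9 and 115 CPM in WT, 75.0 and 75.2 in ROBO4_KO and 125 and 246 in VLDLR_KO in the digit-first form, and 62.4 and 57.1 in WT, 51.9, 59.6 and 55.8 in ROBO4_KO and 74.4, 53.98 and 84.6 in VLDLR_KO in the digit-last form. VLDLR_KO replicate 2 alone reached 246 CPM. The difference was 0.88 (SE 0.23, adjusted p = 0.0118) in the digit-first form, and without that library it was 0.31 (adjusted p = 0.302). As the mean of both forms it was 0.57 (SE 0.17, adjusted p = 0.0244), and not called without WT replicate 1, 2 or 4 or VLDLR_KO replicate 2 or 5 (adjusted p = 0.0566 to 0.13). Ifi27, a small hydrophobic protein of membranes, had 62.8, 67.5 and 64.6 CPM in WT, 66.8 and 61.8 in ROBO4_KO and 78.2 and 134 in VLDLR_KO in the digit-first form, and 56.5 and 50.7 in WT, 49.6, 57.1 and 51.7 in ROBO4_KO and 61.7, 60.7 and 60.1 in VLDLR_KO in the digit-last form. It was higher, by a log2 difference of 0.70 (SE 0.16, adjusted p = 0.00612) in the digit-first form, not called without VLDLR_KO replicate 2 (adjusted p = 0.0863), and by 0.44 (SE 0.12, adjusted p = 0.0141) as the mean of both forms, not called without WT replicate 2 (adjusted p = 0.0715).

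**Figure D4:**
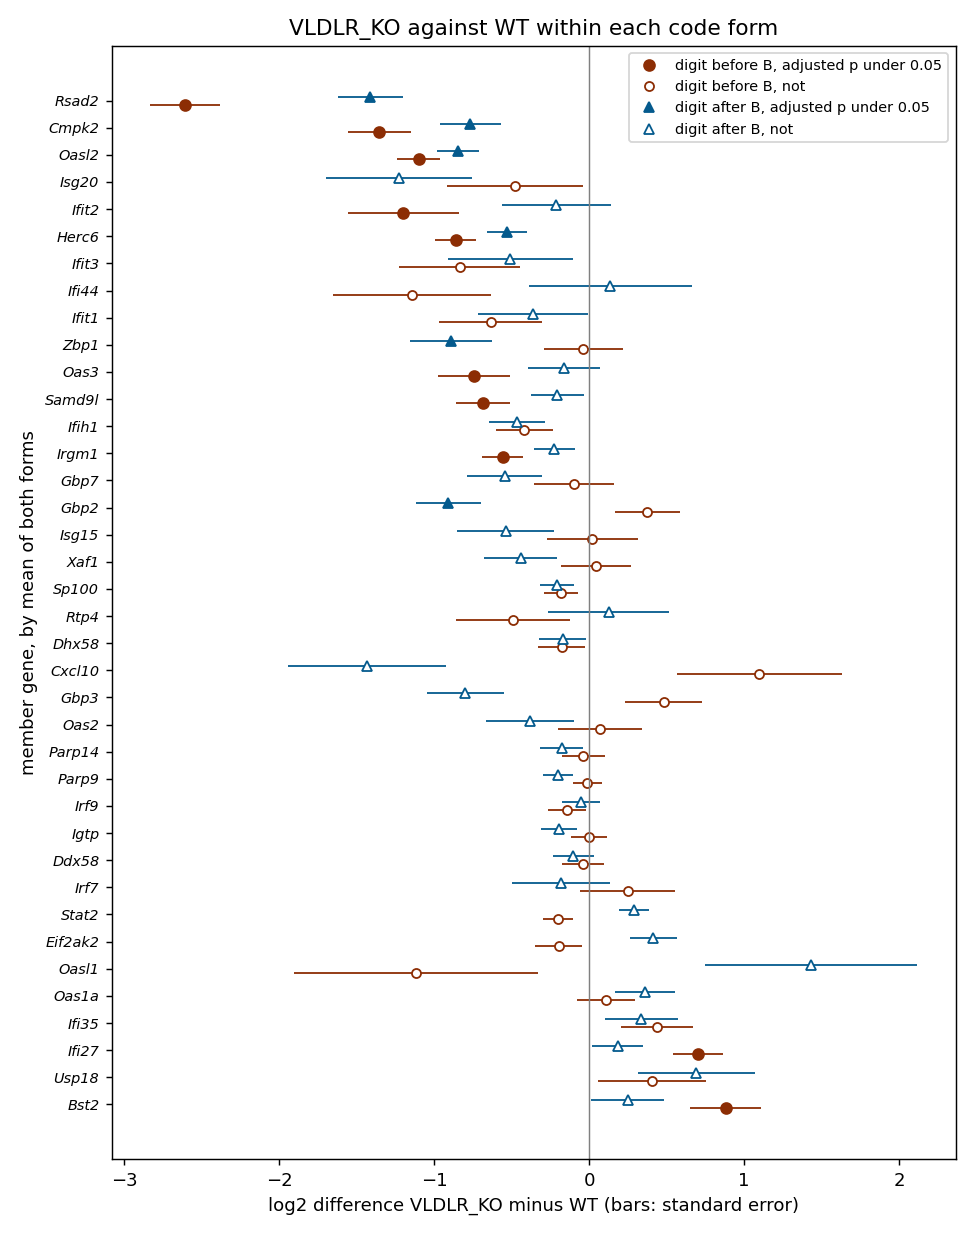
Log2 difference of VLDLR_KO minus WT (horizontal axis, bars are 1 standard error) for each of the 38 members (vertical axis, ordered by the mean of both forms), with the digit before B (circles) and after B (triangles); filled symbols have an adjusted p under 0.05. Rsad2 stands at -2.61 and -1.41, and Cxcl10, Gbp2 and Gbp3 lie on opposite sides of 0 in the 2 forms.

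VLDLR_KO replicate 2 stood apart by gene length, measured as the length implied by count and FPKM. Relative to the mean of all libraries, its genes under 1500 bases had a median of 0.54 (log2 CPM) and its genes over 4000 bases a median of -0.48, a difference of 1.02, against -0.21 to 0.22 in the other 14 libraries. The members followed: against VLDLR_KO replicate 1, of the same genotype and form, 8 of 9 short members were higher (median 0.77) and 9 of 9 long members were lower (median -0.50). Across the 38 members the difference between the 2 libraries and log2 length had a Pearson r of -0.713, a description in which all points share the 2 libraries. Bst2, at 603 bases, and Ifi27, at 830 bases, are among the shortest members, and Samd9l, at 5158 bases, and Herc6, at 5112 bases, among the longest. Rsad2 (3617 bases), Cmpk2 (3018 bases) and Oasl2 (2310 bases) lie between. With a length term for each library in the fit, an alternative chosen after seeing the data, the 4 main differences of VLDLR_KO from WT as the mean of both forms were -1.95 for Rsad2, -1.03 for Cmpk2, -0.98 for Oasl2 and -0.59 for Herc6.

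**Figure D5:**
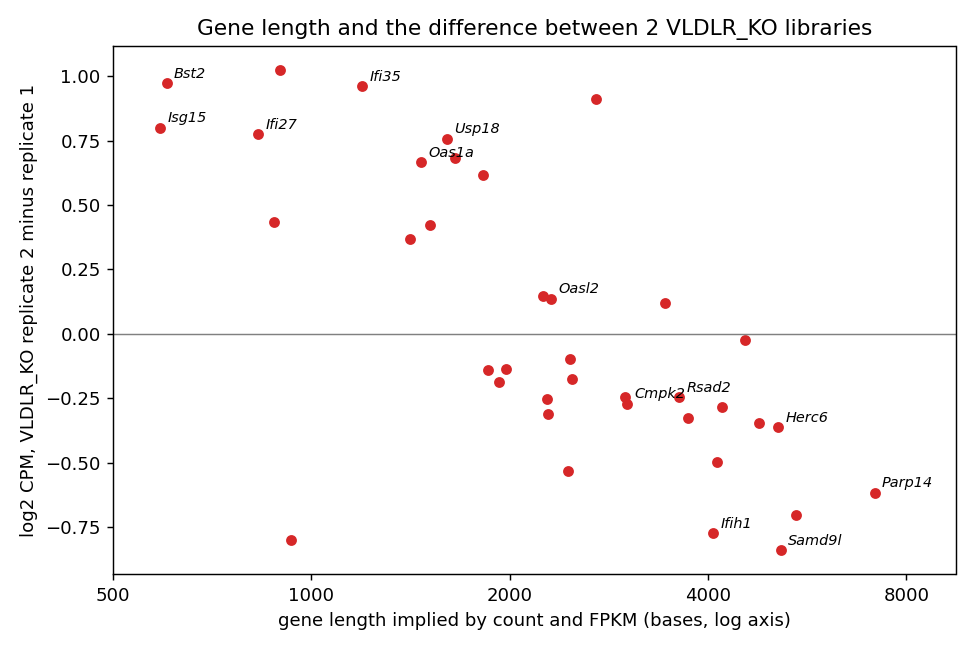
Difference in log2 CPM between VLDLR_KO replicate 2 and replicate 1 (vertical axis) against gene length in bases (horizontal log axis); each point is 1 of the 38 members. Short members such as Bst2 and Ifi27 lie above 0 and long members such as Samd9l and Ifih1 below it, with r = -0.713.

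ROBO4_KO macrophages had lower levels than WT for most members, but few passed the test. This comparison shares the WT libraries with that of VLDLR_KO. In the digit-first form, 34 of 38 members lay below 0 (median -0.49), 1 was called lower and none higher (of all genes, 0.148% and 0.18%). Among digit-last libraries, 29 lay below 0 (median -0.12), 1 was called lower and none higher (of all genes, 1.22% and 0.369%). Without ROBO4_KO replicate 3 that median was -0.03, with 23 below 0, and without ROBO4_KO replicate 4 it was -0.20, with 30 below 0. As the mean of both forms 3 were lower, Rsad2, Oasl2 and Zbp1, and none higher (of all genes, 1.02% and 0.607%). In 10 members every ROBO4_KO library lay below every WT library in both forms (3.25% of all genes), and in none above (3.53% of all genes). These were Cmpk2, Cxcl10, Gbp3, Gbp7, Ifi44, Oas2, Oasl2, Parp9, Rsad2 and Zbp1. Among digit-first libraries the count was 2 without WT replicate 3 or VLDLR_KO replicate 1 or 2, and 0 without ROBO4_KO replicate 2. The mean of both forms gave 1 without WT replicate 2 or ROBO4_KO replicate 2, and 5 without WT replicate 4. The 1 call in the digit-last form fell to 0 without any of 11 libraries, WT replicates 1 to 4, ROBO4_KO replicates 1 to 5 and VLDLR_KO replicates 3 and 5. Among digit-first libraries the T and NK cell markers, carried by Cd4, summed to 34.4 to 54.9 CPM in WT and 22.8 to 23.9 in ROBO4_KO, and the plasmacytoid dendritic cell markers to 50.2 to 54.1 and 57.8 to 66.8 CPM. Among digit-last libraries the fibroblast markers summed to 29.6 to 35.5 CPM in WT and 9.01 to 12.8 in ROBO4_KO, and the macrophage markers to 16860 to 17410 and 14730 to 15340 CPM. Whether these differences bear on the members was not tested.

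Rsad2 was lower in ROBO4_KO, by a log2 difference of -1.63 (SE 0.21, adjusted p = 0.00198) in the digit-first form, not called without ROBO4_KO replicate 2 (adjusted p = 0.0629). In the digit-last form it had a difference of -0.77 (SE 0.20, adjusted p = 0.0963), which did not pass, and the mean of both forms, -1.20 (SE 0.14, adjusted p = 0.000369), held without any 1 library. Oasl2 was lower, by a log2 difference of -0.49 (SE 0.10, adjusted p = 0.0157) as the mean of both forms, not called without WT replicate 1 or 2 or ROBO4_KO replicate 1 or 2 (adjusted p = 0.07 to 0.106). Zbp1, a sensor of Z-form nucleic acid that can trigger cell death, had 4.25, 5.701 and 6.86 CPM in WT, 2.61 and 2.17 in ROBO4_KO and 4.63 and 6.297 in VLDLR_KO in the digit-first form, and 3.91 and 4.62 in WT, 1.72, 2.82 and 2.101 in ROBO4_KO and 2.33, 2.01 and 2.55 in VLDLR_KO in the digit-last form. ROBO4_KO lay below WT in both forms, while VLDLR_KO overlapped WT in the first and lay below it in the second. The difference of ROBO4_KO from WT was -1.08 (SE 0.19, adjusted p = 0.00779), not called without WT replicate 2 or ROBO4_KO replicate 2 (adjusted p = 0.0589 and 0.061).

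Cxcl10 was the member called in the digit-last form. It encodes a chemokine that draws activated T cells. It had 3.298 and 3.08 CPM in WT, 0.501, 0.522 and 0.8199 in ROBO4_KO and 1.59, 0.279 and 1.65 in VLDLR_KO in the digit-last form, and 0.725, 1.11 and 0.958 in WT, 0.426 and 0.723 in ROBO4_KO and 2.56 and 1.43 in VLDLR_KO in the digit-first form. WT replicates 1 and 2 were thus the highest of the 15 libraries. ROBO4_KO was lower than WT, by a log2 difference of -2.36 (SE 0.54, adjusted p = 0.0457), and the call was lost without WT replicate 1, 2, 3, 4 or 5, ROBO4_KO replicate 1, 2, 3, 4 or 5 or VLDLR_KO replicate 3 or 5 (adjusted p = 0.0566 to 0.294). The same 2 WT libraries had 856 and 944 CPM of the immediate early gene Fos, against 12.5 to 56.2 CPM in the other 13, and its part in the result was not tested.

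Between the knockouts, members moved both ways. Among digit-first libraries, 9 were higher and 3 lower in VLDLR_KO than in ROBO4_KO (of all genes, 15.9% and 13.7%). Among digit-last libraries, none was higher and 4 were lower (of all genes, 5.59% and 6.34%). As the mean of both forms, 7 were higher and 6 lower (of all genes, 13.2% and 13.1%). The first count fell to 4, 4 and 5 members in all without ROBO4_KO replicate 1, ROBO4_KO replicate 2 or VLDLR_KO replicate 2. The second fell to 2, 1, 1, 2 and 2 without ROBO4_KO replicate 3, 4 or 5 or VLDLR_KO replicate 3 or 5. The mean of both forms gave 8 without ROBO4_KO replicate 1 or 2. In 6 members, Cmpk2, Herc6, Ifih1, Oasl2, Rsad2 and Samd9l, every VLDLR_KO library was below every ROBO4_KO library in both forms (8.26% of all genes), and in Ifi27 and Oas1a every one was above (7.32% of all genes).

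The lower members of the mean of both forms were Rsad2 (-0.81, SE 0.15), Herc6 (-0.59, SE 0.09), Samd9l (-0.49, SE 0.12), Oasl2 (-0.48, SE 0.10), Cmpk2 (-0.47, SE 0.14) and Ifih1 (-0.38, SE 0.13). The first 4 calls held without any 1 library. Cmpk2 was not called without ROBO4_KO replicate 1, 2 or 4 or VLDLR_KO replicate 2 or 4 (adjusted p = 0.0507 to 0.101). Ifih1 was not called without WT replicate 1, 2, 4 or 5, ROBO4_KO replicate 1, 2, 3 or 4 or VLDLR_KO replicate 2, 3, 4 or 5 (adjusted p = 0.0542 to 0.134). In the digit-last form, Igtp, another interferon-inducible GTPase, was also lower (-0.38, SE 0.10), not called without ROBO4_KO replicate 3, 4 or 5 or VLDLR_KO replicate 3 or 4 (adjusted p = 0.0572 to 0.115).

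Usp18, the protease that removes ISG15 and blocks signalling at the type I receptor, had the largest higher difference of VLDLR_KO from ROBO4_KO as the mean of both forms. It had 3.01, 2.85 and 5.001 CPM in WT, 1.49 and 1.08 in ROBO4_KO and 3.54 and 6.06 in VLDLR_KO in the digit-first form, and 1.62 and 2.05 in WT, 1.34, 2.09 and 1.54 in ROBO4_KO and 3.07, 1.95 and 3.87 in VLDLR_KO in the digit-last form. VLDLR_KO lay above ROBO4_KO with no overlap in the first form and overlapped it in the second. Its mean difference was 1.37 (SE 0.27, adjusted p = 0.00259) and held without any 1 library. Oas1a had 56.6, 62.4 and 85.9 CPM in WT, 44.8 and 46.98 in ROBO4_KO and 56.95 and 90.4 in VLDLR_KO in the digit-first form, and 41.6 and 35.99 in WT, 34.98, 41.6 and 36.1 in ROBO4_KO and 49.4, 48.5 and 51.6 in VLDLR_KO in the digit-last form. It was higher in VLDLR_KO than in ROBO4_KO, by a log2 difference of 0.54 (SE 0.14, adjusted p = 0.011), not called without VLDLR_KO replicate 2 (adjusted p = 0.0532). Bst2 (0.83, SE 0.17) was called without any 1 library, and Ifi27 (0.46, SE 0.12) was not called without ROBO4_KO replicate 2 (adjusted p = 0.0514).

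The higher calls of Cxcl10 (1.35, SE 0.41), Zbp1 (0.62, SE 0.19) and Gbp3 (0.56, SE 0.18) were each lost without several libraries. Cxcl10 was not called without ROBO4_KO replicate 1, 3 or 4 or VLDLR_KO replicate 1, 3 or 5 (adjusted p = 0.0511 to 0.104). Zbp1 was not called without ROBO4_KO replicate 1, 2, 3 or 5 or VLDLR_KO replicate 2, 3 or 5 (adjusted p = 0.0506 to 0.113). Gbp3 was not called without WT replicate 3, ROBO4_KO replicate 1, 2, 3 or 5 or VLDLR_KO replicate 1, 3, 4 or 5 (adjusted p = 0.0505 to 0.13).

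In the digit-first form alone, the higher members were Usp18 (1.89), Cxcl10 (1.78), Bst2 (1.30), Gbp3 (1.19), Zbp1 (1.19), Irf7 (1.10), Gbp2 (0.83), Ifi27 (0.72) and Oas1a (0.68), and the lower ones Rsad2 (-0.98), Samd9l (-0.76) and Herc6 (-0.70). Irf7, the master regulator of interferon-alpha genes, was called in no other genotype comparison. Bst2 and Herc6 were called without any 1 library. Cxcl10 was lost without WT replicate 1, 2, 3, 4 or 5, ROBO4_KO replicate 1, 2, 3, 4 or 5 or VLDLR_KO replicate 1, 2, 3 or 5 (adjusted p = 0.0506 to 0.223). Gbp2 was lost without ROBO4_KO replicate 1 or 2 or VLDLR_KO replicate 1 (adjusted p = 0.0642 to 0.105), and Gbp3 without ROBO4_KO replicate 1 (adjusted p = 0.0761). Besides that of Cxcl10, the calls of Ifi27, Irf7, Oas1a, Rsad2, Usp18 and Zbp1 needed VLDLR_KO replicate 2. Ifi27 was lost without ROBO4_KO replicate 1 or 2 or VLDLR_KO replicate 2 (adjusted p = 0.0531 to 0.105). Irf7 was lost without ROBO4_KO replicate 1 or 2 or VLDLR_KO replicate 2 (adjusted p = 0.105 to 0.274). Oas1a was lost without ROBO4_KO replicate 1 or 2 or VLDLR_KO replicate 2 (adjusted p = 0.0961 to 0.351). Rsad2 was lost without ROBO4_KO replicate 1 or VLDLR_KO replicate 2 (adjusted p = 0.0523 and 0.0807). Usp18 was lost without ROBO4_KO replicate 2 or VLDLR_KO replicate 2 (adjusted p = 0.0569 and 0.065), and Zbp1 without ROBO4_KO replicate 2 or VLDLR_KO replicate 2 (adjusted p = 0.0761 and 0.0925). Samd9l was lost without ROBO4_KO replicate 1 or 2 (adjusted p = 0.0543 and 0.0538). Among digit-last libraries the lower members besides Igtp were Rsad2 (-0.64), lost without WT replicate 4, ROBO4_KO replicate 1, 2, 3, 4 or 5 or VLDLR_KO replicate 3, 4 or 5 (adjusted p = 0.0604 to 0.122), Oasl2 (-0.56), lost without ROBO4_KO replicate 4 (adjusted p = 0.0523), and Herc6 (-0.48), lost without ROBO4_KO replicate 5 or VLDLR_KO replicate 5 (adjusted p = 0.0501 and 0.0652).

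In 5 members the difference between VLDLR_KO and WT was called as unequal in the 2 code forms, a count near the share of all genes and so no result about the class. The difference of VLDLR_KO from WT was more positive in the digit-first form than in the digit-last form in 3 members (of all genes, 7.93%) and more negative in 2 (of all genes, 6.57%). Gbp2 had 9.02, 7.81 and 12.3 CPM in WT, 7.36 and 6.82 in ROBO4_KO and 13.95 and 11.2 in VLDLR_KO in the digit-first form, and 15.5 and 17.3 in WT, 15.6, 11.3 and 11.1 in ROBO4_KO and 7.79, 8.36 and 10.1 in VLDLR_KO in the digit-last form. VLDLR_KO overlapped WT in the first form and lay below it in the second, and the 2 differences, 0.38 and -0.91, differed by 1.28 (SE 0.29, adjusted p = 0.0148), not called without WT replicate 2 (adjusted p = 0.0697). Gbp3 had 5.44, 3.96 and 7.24 CPM in WT, 3.15 and 3.61 in ROBO4_KO and 9.16 and 6.297 in VLDLR_KO in the digit-first form, and 7.38 and 9.41 in WT, 4.12, 5.58 and 5.48 in ROBO4_KO and 4.501, 5.35 and 4.62 in VLDLR_KO in the digit-last form. Its differences from WT were 0.48 and -0.80, neither called, and they differed by 1.28 (SE 0.35, adjusted p = 0.0314). Cxcl10 gave 1.10 and -1.43, neither called, and a difference of 2.53 (SE 0.74, adjusted p = 0.0376).

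In the other direction, Rsad2 fell further in the digit-first form, as given above, and Stat2, a subunit of the complex that binds the ISRE, gave -0.20 and 0.29, which differed by -0.49 (SE 0.14, adjusted p = 0.0335). Stat2 had 65.5, 66.8 and 65.2 CPM in WT, 59.97 and 61.3 in ROBO4_KO and 62.9 and 51.6 in VLDLR_KO in the digit-first form, and 43.1 and 40.7 in WT, 45.2, 48.7 and 49.96 in ROBO4_KO and 53.2, 47.5 and 52.6 in VLDLR_KO in the digit-last form. The number of members called was 1 without WT replicate 1 or 2, 2 without WT replicate 3 or 4, 3 without WT replicate 5 or VLDLR_KO replicate 2, 3 or 5, and 9 without VLDLR_KO replicate 1. The call of Cxcl10 was lost without WT replicate 1, 2, 3, 4 or 5, ROBO4_KO replicate 4 or VLDLR_KO replicate 1 (adjusted p = 0.0527 to 0.111). That of Gbp3 was lost without WT replicate 1, 2, 3 or 4 or VLDLR_KO replicate 1, 3 or 5 (adjusted p = 0.0552 to 0.132). The call of Stat2 was lost without WT replicate 1, 2, 3, 4 or 5, ROBO4_KO replicate 1 or VLDLR_KO replicate 2, 3 or 5 (adjusted p = 0.0502 to 0.131).

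For ROBO4_KO against WT the difference between forms was called in 0 of 38 members by edgeR and 0 by DESeq2, with 3 at an unadjusted p under 0.05 (of all genes, 0.377% more positive and 0.0082% more negative in the digit-first form). For VLDLR_KO against ROBO4_KO it was more positive in 1 member, Gbp2 (1.36, SE 0.30, adjusted p = 0.0217), and more negative in none (of all genes, 4.48% and 3.97%). That call was lost without ROBO4_KO replicate 1 or 2 (adjusted p = 0.0668 and 0.0828). The count was 2 without WT replicate 4 or 5 or VLDLR_KO replicate 4, and rose to 13 without VLDLR_KO replicate 1.

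The genes that carry the interferon signal were read from a second list. Of 21 interferon genes, Ifnb1 and Ifna16 were in the table with 1 count each over all 15 libraries (Ifnb1 in VLDLR_KO replicate 3, Ifna16 in WT replicate 1), so none could be tested, and the others were not analysed here. Of 10 tested receptors, kinases and STATs, in the digit-first form 3 were higher in VLDLR_KO than in WT (of all genes, 17.6%). The higher ones were the receptor chains Ifnar1 (0.40, SE 0.08), Ifngr2 (0.41, SE 0.10) and Ifnar2 (0.31, SE 0.09). Ifnar2 was not called without WT replicate 3 or 4 or VLDLR_KO replicate 2 (adjusted p = 0.0773 to 0.152), nor with gene length in the fit (adjusted p = 0.231). Among digit-last libraries, 1 of the 10 was called, the receptor chain Ifngr1, which was lower in VLDLR_KO than in WT (-0.70, SE 0.10, adjusted p = 0.000455) and than in ROBO4_KO (-0.56, SE 0.09, adjusted p = 0.00117). For VLDLR_KO against WT in that form, 7.43% of all genes were lower and 5.94% higher. None of the 10 was called between ROBO4_KO and WT by edgeR in either form, with 1 at an unadjusted p under 0.05 in the digit-first form and 0 in the digit-last form. Of all genes, 0.148% were lower and 0.18% higher in the first form, and 1.22% and 0.369% in the second. The lack of a call among these 10 therefore says little. Il10rb, a shared chain of the type III receptor, was lower in VLDLR_KO than in ROBO4_KO as the mean of both forms (-0.21), a call lost without WT replicate 1, 2 or 4, ROBO4_KO replicate 1, 3 or 4 or VLDLR_KO replicate 2, 3 or 5 (adjusted p = 0.0566 to 0.175).

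Of 20 tested genes that induce interferon or drive its regulators, 5 were higher and 3 lower in VLDLR_KO than in WT in the digit-first form, and none was higher and 6 were lower in the digit-last form. Of all genes tested, 17.6% were higher and 15.6% lower in the first form, and 5.94% higher and 7.43% lower in the second. The difference between forms was called more positive in the digit-first form in 4 of the 20 and more negative in none (of all genes, 7.93% and 6.57%). Of the list, 3 were called in opposite directions in the 2 forms, and the share of all genes that did so was not counted here. Irf1, a transcription factor that acts on many members, had 40.5, 33.4 and 41.2 CPM in WT and 56.7 and 60.4 in VLDLR_KO in the digit-first form, and 63.7 and 73.1 in WT and 26.4, 30.5 and 30.3 in VLDLR_KO in the digit-last form. The groups did not overlap in either form, with VLDLR_KO above WT in the first (0.61, SE 0.11) and below it in the second (-1.24, SE 0.11). Irf8, a factor of the macrophage lineage, gave 0.53 and -0.63, and Ikbke, a kinase that activates IRF3, gave 0.84 and -0.62. In the digit-last form ROBO4_KO had 47.55, 42.5 and 42.6 CPM of Irf1, also below WT. There, Ikbke had 125.5 and 145.8 CPM in WT, 98.7, 93.4 and 81.9 in ROBO4_KO and 78.4, 89.3 and 97.3 in VLDLR_KO, so the knockouts overlapped below WT. WT in that form is the 2 libraries with high Fos, whose part in these differences was not tested. The difference between forms was 1.85 (SE 0.16, adjusted p = 2.272e-05) for Irf1, 1.17 (SE 0.14, adjusted p = 0.000355) for Irf8 and 1.46 (SE 0.19, adjusted p = 0.000509) for Ikbke, and held without any 1 library, while the call of Ikbke in the digit-last form was lost without WT replicate 2 (adjusted p = 0.131). Irf1 was also lower in ROBO4_KO than in WT in the digit-last form (-0.63, SE 0.11, adjusted p = 0.0109), not called without WT replicate 2 or ROBO4_KO replicate 4 or 5 (adjusted p = 0.0598 to 0.277).

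Ticam1, the adaptor TRIF below Toll-like receptors 3 and 4, was lower in both forms, with log2 differences of -0.46 (SE 0.10, adjusted p = 0.00571) and -0.39 (SE 0.10, adjusted p = 0.0231). The second call was lost without WT replicate 1 or 2 or VLDLR_KO replicate 3 or 5 (adjusted p = 0.0717 to 0.143), and the mean of both forms (-0.43, SE 0.07) held without any 1 library. Tmem173, which encodes STING (0.72), and Irf3 (0.62) were the other 2 higher in the digit-first form, and Tlr4 (-0.60) and Irf2 (-0.50) the other 2 lower. Irf3 was not called without VLDLR_KO replicate 2 (adjusted p = 0.197), and Irf2 not without WT replicate 1, 2, 3 or 5 or VLDLR_KO replicate 2 (adjusted p = 0.0509 to 0.335). In the digit-last form, Trim25, a ligase that activates RIG-I (-0.60), and Ciita, the master regulator of MHC class II (-3.28), were lower. Both were lost without WT replicate 2 (adjusted p = 0.102 and 0.0509).

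Of 9 tested inhibitors, Trex1, a nuclease that clears cytosolic DNA, was higher in the digit-first form (0.85, SE 0.21), not called without VLDLR_KO replicate 2 (adjusted p = 0.178). Socs3, an inhibitor of JAK kinases, had 29.7 and 33.4 CPM in WT replicates 1 and 2 and 0.278, 0.313 and 0.205 in ROBO4_KO and 1.06, 0.948 and 0.743 in VLDLR_KO in the digit-last form, against 3.68, 1.37 and 1.97 in WT, 1.33 and 2.74 in ROBO4_KO and 4.47 and 4.81 in VLDLR_KO in the digit-first form. These 2 WT libraries stood far above the other 13, as they did for Fos. VLDLR_KO was lower than WT, with a log2 difference of -5.10 (SE 0.36, adjusted p = 9.728e-07), as was ROBO4_KO, with -6.86 (SE 0.42, adjusted p = 3.276e-07), in the digit-last form. Among digit-first libraries, VLDLR_KO was higher than WT, by a log2 difference of 0.98 (SE 0.34, adjusted p = 0.0413), a call lost without WT replicate 1, 2, 4 or 5, ROBO4_KO replicate 4 or VLDLR_KO replicate 1, 2 or 5 (adjusted p = 0.0512 to 0.164).

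Against ROBO4_KO, and in the digit-first form, VLDLR_KO had 1 receptor gene higher, Ifngr2 (0.31), where 15.9% of all genes were higher and 13.7% lower. The call of Ifngr2 was lost without WT replicate 1, 2, 3 or 4, ROBO4_KO replicate 1, 2, 4 or 5 or VLDLR_KO replicate 1, 2, 3 or 5 (adjusted p = 0.051 to 0.223). Of the inhibitors Trex1 (1.13) and Socs3 (1.18) were higher, and of the induction genes Irf1 (0.50), Irf3 (0.64), Irf8 (0.56), Ikbke (0.94) and Tmem173 (0.43), while Tlr4 was lower (-0.62). Among digit-last libraries, 6.34% of all genes were lower and 5.59% higher. There, the lower ones of the pathway list were Ifngr1, given above, Irf1 (-0.61), Irf8 (-0.32) and Ciita (-2.17), and Socs3 was higher (1.77). Irf1 and Irf8 thus changed direction between the forms against ROBO4_KO as well, by 1.10 and 0.88, differences that held without any 1 library. The call of Irf8 in the digit-last form was lost without WT replicate 1, 2 or 3, ROBO4_KO replicate 1, 2, 3 or 4 or VLDLR_KO replicate 3 or 5 (adjusted p = 0.0516 to 0.152). Several other calls of this comparison in the digit-first form were lost when 1 library was left out. Trex1 was lost without ROBO4_KO replicate 1 or VLDLR_KO replicate 2 (adjusted p = 0.0543 and 0.0525). Socs3 was lost without WT replicate 1 or 2, ROBO4_KO replicate 1 or VLDLR_KO replicate 2 (adjusted p = 0.0526 to 0.24). Irf1 was lost without ROBO4_KO replicate 1 or VLDLR_KO replicate 2 (adjusted p = 0.106 and 0.0709). Irf3 was lost without ROBO4_KO replicate 1 or 2 or VLDLR_KO replicate 2 (adjusted p = 0.0804 to 0.211). Tmem173 was lost without ROBO4_KO replicate 1 or VLDLR_KO replicate 2 (adjusted p = 0.263 and 0.204), and Tlr4 without ROBO4_KO replicate 1 (adjusted p = 0.0831). In the digit-last form Ciita was lost without ROBO4_KO replicate 3 or VLDLR_KO replicate 3 or 5 (adjusted p = 0.113 to 0.122) and Socs3 without ROBO4_KO replicate 3, 4 or 5 or VLDLR_KO replicate 3 or 4 (adjusted p = 0.0532 to 0.107).

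The other 19 members were called in no genotype comparison. Apart from Stat2, these were the sensors Ddx58 (RIG-I) and Dhx58 (LGP2), the transcription factors Irf9 and Sp100, Oas2 and Oasl1, Ifit1 and Ifit3, the effectors Eif2ak2 (the kinase PKR), Isg20, Xaf1, Ifi44, Ifi35 and Rtp4, the modifier Isg15, Parp9 and Parp14, and Gbp7. Their differences of VLDLR_KO from WT ranged from -1.14 (Ifi44) to 0.44 (Ifi35) in the digit-first form and from -1.23 (Isg20) to 1.43 (Oasl1) in the digit-last form. Isg15, the ubiquitin-like modifier, had a difference of 0.02 (SE 0.29) in the first form and -0.54 (SE 0.31) in the second, while Herc6, its ligase, was lower in both. Ifit1 and Ifit3 had their largest differences between ROBO4_KO and WT in the digit-first form, -1.35 (SE 0.35) and -1.59 (SE 0.41), with adjusted p of 0.202 and 0.202 by edgeR. For that comparison the authors' deposited DESeq2 q was 0.0134 for Ifit1 and 0.229 for Ifit3, so the lack of a call for Ifit1 depends on the method. WT replicate 5 stood apart, with 46.4 CPM of Ifit3 against 18.7 and 18.8 CPM in WT replicates 3 and 4.

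The authors' deposited table compared the genotypes within each code form as well. At q under 0.05 it listed 8 members lower and 2 higher for VLDLR_KO and WT in the digit-first form, and 7 lower and 1 higher in the digit-last form. For ROBO4_KO and WT it listed 6 lower in the digit-first form and 2 lower in the digit-last form, and none higher. For VLDLR_KO and ROBO4_KO it listed 2 higher in the digit-first form, and 3 lower and 1 higher in the digit-last form. The share of all genes under that q was not counted here, so these counts say nothing about the class by themselves. Rsad2 had q = 1.734e-20 and q = 3.842e-06 in the authors' deposited table for VLDLR_KO and WT in the 2 forms.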

How the data were processed

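Total RNA from TRIzol was made into libraries with a SMARTER mRNA-Seq kit and read paired-end on a BGISEQ-500, per the labels' protocols. HISAT and Bowtie2, without versions, and GRCm38.p6 are named in the submitters' processing notes; the quantifier is not given in the sources used here. The authors deposited estimated counts per gene, of which 92.6% were whole numbers, and FPKM values per gene, per the file headers. Their deposited table also held log2 fold changes and q-values of DESeq2, per the file headers, between sets of libraries matched to genotype and code form by the deposited mean counts.

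Estimated counts were rounded, filtered with filterByExpr by genotype and code form (12198 genes left) and scaled by TMM. They were fitted with edgeR 4.0.16 (R 4.3.3, limma 3.58.1) by quasi-likelihood with 6 coefficients, 1 per genotype and code form, over all 15 libraries, leaving 9 residual degrees of freedom. Adjusted p-values are Benjamini-Hochberg values over all genes tested, and the SE of a difference is its size over the square root of F. The fit was tested on simulated data. Alternatives were DESeq2 1.42.0, RLE size factors, no filter, each code form fitted on its own, the code form ignored or additive, a replicate block, each library left out in turn and, chosen after seeing the data, a length term for each library.

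Members and lists were chosen with earlier results of these data known. Members called between genotypes are named; values in every library are given for those called as the mean of both forms, for those whose difference changed with the code form and for the 5 with the highest mean FPKM; genes of the interferon pathway list are named where called. Depth was 18132866 to 19005966 counts per library. Mx1 and Mx2 were not analysed here. A further result of the interferon pathway list is not reported here. Promoters came from a RefSeq table on GRCm38.p6. A transcript table and a second gene table that repeats the first were not used.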

Additional observations from a re-analysis of the deposited data

Results flagged for a closer look

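Of 51 sets of 5 libraries checked, 1 for each of 17 genes in each genotype, 2 had a library set apart from the other 4, where chance sets a library apart in about 1 in 20 sets. Both were in VLDLR_KO replicate 2, which held 133.7 CPM of Ifi27 and 90.42 CPM of Oas1a, each the highest of its genotype.

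The other values concern differences between genotypes that themselves differed between the 2 code forms by edgeR's interaction test, given as the log2 difference in the digit-first form minus that in the digit-last form. Between VLDLR_KO and WT this was 2.533 for Cxcl10, 1.284 for Gbp2, 1.279 for Gbp3, -1.195 for Rsad2 and -0.4895 for Stat2. Among the genes of the interferon pathway it was 6.079 for Socs3, 1.847 for Irf1, 1.459 for Ikbke, 1.166 for Irf8, 0.9298 for Ifngr1, 0.7139 for Tmem173, 0.6709 for Ifngr2 and 0.4411 for Tyk2. Between VLDLR_KO and ROBO4_KO it was 1.363 for Gbp2, 1.103 for Irf1, 0.9832 for Ikbke, 0.8817 for Irf8 and 0.6494 for Ifngr1. Between ROBO4_KO and WT it was 6.661 for Socs3. The 2 WT libraries of the digit-last form enter the first and the last of these sets, and they were far above the other 13 for Socs3.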

How the results depend on the processing

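The number of members called (of 38) moved by over 1.5 times as follows, and the cause was not tested. For VLDLR_KO and WT it was 5 with each code form fitted on its own in place of 10 in the digit-first form, 11 with a length term in place of 6 in the digit-last form, and 5 with the code form ignored in place of 9 as the mean of both forms. For ROBO4_KO and WT it was 5 by DESeq2, 2 without a filter and 2 with a length term in place of 1 in the digit-first form; 2 by DESeq2, 2 with a length term and 0 with each form on its own in place of 1 in the digit-last form; and 8 by DESeq2 and 1 with the form ignored in place of 3 as the mean. For VLDLR_KO and ROBO4_KO it was 5 with each form on its own in place of 12 in the digit-first form, and 2 with the form ignored and 8 with it as an additive term in place of 13 as the mean. The difference between forms for VLDLR_KO and ROBO4_KO gave 6 by DESeq2 and 3 with a length term in place of 1.

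Leaving out each library in turn gave 5 to 14 (VLDLR_KO and WT, digit-first), 2 to 10 (digit-last) and 5 to 17 (mean); 0 to 2, 0 to 1 and 1 to 5 for ROBO4_KO and WT; 4 to 17, 1 to 6 and 8 to 14 for VLDLR_KO and ROBO4_KO; 21 to 28 for the code form; and 1 to 9 and 0 to 13 for the difference between forms of VLDLR_KO against WT and against ROBO4_KO.

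Deviations from the mean of a genotype and form correlated at -0.473 to 0.311 over 12 same-digit pairs (4 over 0.1). Over 25 other pairs they correlated at -0.483 to 0.559. Each such mean held only 2 or 3 libraries, whose deviations cancel by construction. These values therefore cannot tell whether the digits of the sample codes pair libraries. With the digit as a replicate block the counts were 2 for VLDLR_KO and WT (digit-last), 0 for ROBO4_KO and WT (digit-last), 3, 2 and 7 for VLDLR_KO and ROBO4_KO (digit-first, digit-last, mean), and 1 and 0 for the difference between forms of VLDLR_KO against WT and against ROBO4_KO.

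Of 65 calls of single members, 14 held under every alternative run for them; of 1384 values under alternatives, 252 were in the same direction without a call and 0 in the opposite one. For the pathway genes, 24 of 73 calls held throughout. Low counts limit Oasl1, whose difference of VLDLR_KO from WT had an SE of 0.79 in the digit-first form, against 0.22 for Rsad2.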
